A study of Elaeis oleifera with 12 samples.

Results

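Proton pumps and proton exchangers of the oil palm fruit base were described as a group of 92 loci out of 29040, chosen by the wording of the locus descriptions (plasma membrane ATPase, V-type proton ATPase, proton pump, cation/H(+) antiporter, sodium/hydrogen exchanger and vacuolar cation/proton exchanger). No measured value entered that rule, which was set with earlier results of these data known. The 92 loci comprised 37 V-type ATPase subunit loci, 8 pyrophosphate-energized proton pumps, 11 plasma membrane ATPases, 3 proton pump interactors, 8 sodium/hydrogen exchangers, 8 vacuolar cation/proton exchangers and 17 cation/H(+) antiporters. Loci were tested when at least 1 library reached 1 RPKM, which held for 69 of the 92, and 23 were too low. RPKM is the number of reads at a locus scaled to the length of its transcript and to the aligned reads of the library, so that levels of different loci can be set side by side.

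RNA came from the base of the fruit with the abscission zone (AZ) of American oil palm, Elaeis oleifera. The groups were ripe fruit of the non-shedding palm 26-11 (ripe NSd), pre-ripe fruit of the same palm (PR NSd), ripe fruit of palm 28-7, which sheds its ripe fruit (ripe Sd), and pre-ripe fruit of that palm (PR Sd). Each group held 3 libraries (replicates 4 to 6, 1 to 3, 10 to 12 and 7 to 9 in that order), with about 50 dissected pieces (roughly 3 g) pooled in each sample. Both palms are open-pollinated individuals of the same progeny, and each palm is a single individual sampled from 1 bunch per stage. What the p-values gauge is how repeated samplings of a single bunch vary. The phenotype and the individual palm cannot be told apart. The age of the bunches was judged from their place in the whorl and the fruit color.

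Plant cells use proton pumps to charge their membranes and proton exchangers to spend that charge. At the plasma membrane, P-type H+-ATPases export protons, acidify the cell wall and power nutrient uptake, and in the vacuole and other endomembranes the V-type ATPase and the pyrophosphatase pump protons into the lumen. The exchangers then move sodium, potassium or calcium against the returning protons. Acid pH loosens growing walls through expansins, and in AZs of Arabidopsis and tomato a change of cytosolic pH accompanies organ shedding.

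The libraries held 19090375 to 34004517 aligned reads, and 1 read corresponded to 0.0196 to 0.0349 RPKM for a transcript length of 1500 bases. The 3 PR NSd libraries stood apart. Their median RPKM over all loci was 2.11 to 2.55, against 3.10 to 3.94 in the 9 other libraries, and rRNA loci took 16.4% of the summed RPKM in replicate 1 and 5.77% and 5.79% in replicates 2 and 3, against 7.03% in replicate 6 of ripe NSd and 0.496% to 3.13% in the 8 remaining libraries. Summed RPKM of 51 photosynthesis loci, markers of green tissue, ran from 560 to 601 in PR NSd, against 2579 to 4597 in the other groups. The mean of 46 of these 51 loci was lower in PR NSd than in PR Sd, and 2 of the 51 were at 0 everywhere. Lignin and secondary wall loci, markers of pedicel wood, summed to 429 to 526 RPKM in PR NSd and to 646 to 956 RPKM elsewhere, with 8 of 41 at 0 everywhere. The mean was lower in PR NSd than in PR Sd for only 21 of these 41 loci. Oil loci summed to 1920 to 2029 RPKM in PR NSd, against 2071 to 2181.7 RPKM in PR Sd, and carotenoid loci to 154 to 177 RPKM, against 234 to 255 RPKM. Seed loci were at 8972 to 10541 RPKM in PR NSd and 7277 to 10017 RPKM in PR Sd. The lists held no marker exclusive to the AZ. Polygalacturonases, enzymes of cell separation, comprised 58 loci, 12 of them at 0 everywhere. They summed to 434 to 462 RPKM in PR NSd and 226 to 330 RPKM in PR Sd, without overlap. The mean was lower in PR NSd than in PR Sd for 25 of the 58. In ripe fruit they summed to 399 to 704 RPKM in NSd and 378 to 652 RPKM in Sd. The ripe palms also differed without overlap in oil loci, at 2188 to 2930 RPKM in NSd and 1241 to 1986 RPKM in Sd. So did lignin loci, at 646 to 767 RPKM in NSd and 822 to 956 RPKM in Sd. The mean was lower in ripe NSd for 13 of 47 oil loci and 11 of 41 lignin loci. The other lists overlapped between the ripe palms. In bulk tissue, fewer cells of a type and less RNA per cell cannot be told apart. The part of tissue composition was not tested, neither with PR NSd nor between the ripe palms.

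A locus is referred to as called when its Benjamini-Hochberg adjusted p over all 20495 loci tested was under 0.01 in limma and its log2 fold change, on the log2(RPKM + 1) scale, was above 1 or below -1. This scale understates the change of low loci. A looser threshold, which asked only for an adjusted p under 0.05 whatever the fold, is given where it adds loci. All folds compare ripe with PR fruit or NSd with Sd.

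The V-type ATPase was by far the most abundant machine of the group, with 79.9% of its summed RPKM. The complex has a V1 sector in the cytosol that hydrolyses ATP and a V0 sector in the membrane that conducts protons, and 35 of its 37 loci passed the filter. All 13 subunit types (A to H of V1, and a, c, c'', d and e of V0) were represented. The sum over the complex was 2668 ± 278 RPKM in ripe NSd, 2360 ± 191 RPKM in PR NSd, 2812 ± 92.8 RPKM in ripe Sd and 2760 ± 174 RPKM in PR Sd (SD, n = 3 each). With RPKM as deposited, the PR NSd libraries, at 2511 RPKM or less, lay below all 6 Sd libraries, of which the lowest was at 2653 RPKM. The other groups overlapped. The sums were not rescaled. The median ratio of a library to the others was 0.726 to 0.878 in PR NSd and 0.969 to 1.14 in the other groups. A lower sum in PR NSd cannot be told apart from the lower scale of those libraries.

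The proteolipid subunit c, several copies of which form the rotating ring that carries protons across the membrane, led the complex with a sum of 1116 RPKM over 6 loci. A single locus, LOC105054189, gave 55.1% of it. This locus had 550, 557 and 581 RPKM in ripe NSd, 579, 552 and 531 RPKM in PR NSd, 714, 652 and 561 RPKM in ripe Sd, and 652, 685 and 783 RPKM in PR Sd. The PR NSd libraries were all below the PR Sd libraries, by a log2 fold change of -0.35 ± 0.12 (SE, adjusted p = 0.0257), and the ripe libraries of the palms overlapped. The median of all loci in that comparison was also -0.35, and after rescaling of the libraries (described with the ripening of the NSd palm) the fold of LOC105054189 was 0.06 (adjusted p = 0.783). The other leading loci were subunit G LOC105045334, with a mean of 152 RPKM over the 12 libraries, and subunit F LOC105054822, with 152 RPKM. Subunit G is part of the peripheral stalks and subunit F of the central rotor stalk.

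**Figure D1:**
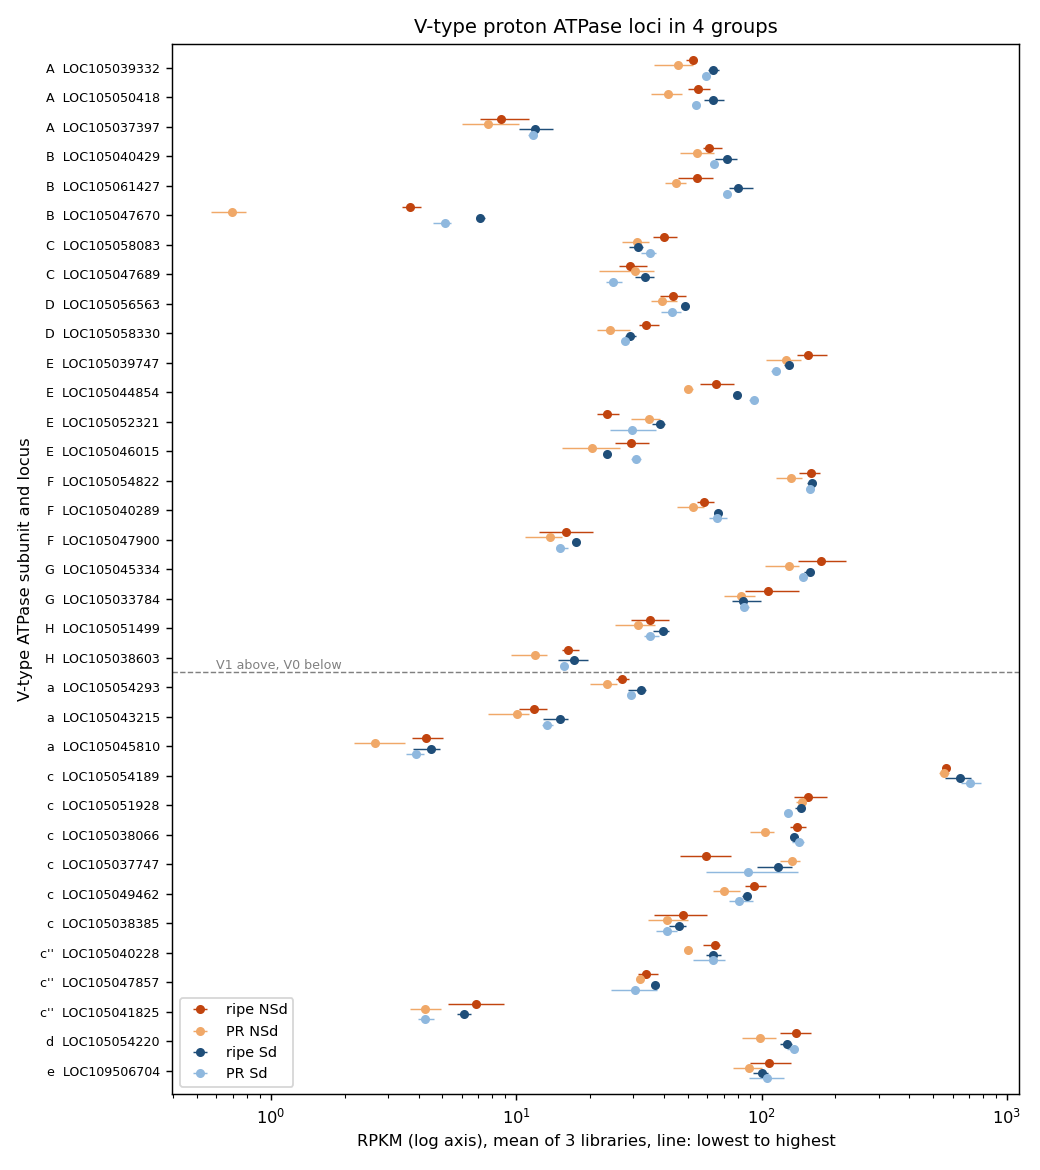
Levels of the 35 tested V-type ATPase loci (rows, by subunit) as mean RPKM of 3 libraries on a log axis, with a line from the lowest to the highest library, in ripe NSd, PR NSd, ripe Sd and PR Sd. Subunit c LOC105054189 stands at the top of the scale, and the B 2 locus LOC105047670 has its PR NSd libraries between 0.570 and 0.793 RPKM, below those of the other groups.

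Loci of the same subunit differed widely in level. The 3 loci of the catalytic subunit A averaged 55.2 RPKM (LOC105039332), 53.6 RPKM (LOC105050418) and 9.98 RPKM (LOC105037397). Those of the ATP-binding subunit B, which sits beside A in the V1 head, averaged 63.1 RPKM (LOC105040429), 63.0 RPKM (LOC105061427) and 4.14 RPKM (LOC105047670). Subunit d was nearly all LOC105054220, at 125 RPKM, with LOC105047706 at 0.123 RPKM. Subunit G-like LOC105032015 did not exceed 0.0579 RPKM in any library. Reads of near-identical copies may have been split between loci by the mapping to transcripts of another species, E. guineensis, and levels of single paralogs are uncertain to that extent.

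In the shedding palm, no member was called between ripe and PR fruit, higher or lower, where 0.659% of all loci were called higher and 0.429% lower. An unadjusted p under 0.05 was reached by 16 members, or 23.2% of those tested, against 22.5% of all loci. The 95% confidence interval of the log2 fold change lay between -1 and 1 for 34 of the 35 V-type loci and for 83.4% of all loci tested, whose levels were not matched to those of the V-type loci. The median log2 fold change of the members was 0.09, against 0.03 over all loci. At the looser threshold 2 members were higher in ripe Sd, or 2.90% of those tested, and none was lower, against 3.79% higher and 3.25% lower of all loci.

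Both of those members act at the vacuole. The pyrophosphatase LOC105050114, the leading pump of its class, had 81.0, 93.0 and 96.5 RPKM in ripe Sd, against 51.9, 54.5 and 62.2 RPKM in PR Sd, and 53.5, 62.8 and 67.6 RPKM in ripe NSd, against 57.2, 71.7 and 75.7 RPKM in PR NSd. With RPKM as deposited, the ripe Sd libraries were above all other libraries. The log2 fold change was 0.67 ± 0.14 between ripe Sd and PR Sd (SE, adjusted p = 0.0145). Between PR NSd and PR Sd it was 0.27 ± 0.14 (adjusted p = 0.114), and 0.67 (adjusted p = 0.00158) after rescaling. The fold of ripe Sd against PR Sd was 0.65 (adjusted p = 0.0112) after rescaling, close to that of PR NSd. Ripe Sd was thus above PR NSd only with RPKM as deposited. The vacuolar cation/proton exchanger 3 LOC105041957, of a family that loads calcium into the vacuole, had 2.92, 2.80 and 2.58 RPKM in ripe Sd, against 1.41, 1.75 and 1.43 RPKM in PR Sd. The groups did not overlap, with a log2 fold change of 0.58 ± 0.13 (SE, adjusted p = 0.0202).

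In the non-shedding palm, 3 members were called higher and 1 lower in ripe than in PR fruit, or 4.35% and 1.45% of those tested, against 7.77% and 3.07% of all loci. At the looser threshold 24 members (34.8%) were higher and 4 (5.80%) lower, against 39.2% and 7.77% of all loci. The median log2 fold change of the members was 0.26, against 0.31 over all loci, and changes in this comparison are to be read against that shift. Rescaling each library by its median ratio to the others brought the median of all loci to 0.02 and that of the members to -0.08. Of all loci called, 71.6% were higher in ripe NSd with RPKM as deposited and 45.7% after rescaling. Members called after rescaling were 1 higher and 3 lower. Without replicate 5 the count of called members was 2, and without replicate 6 it was 6.

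The comparisons of PR fruit between the palms had the opposite shift. In PR NSd 7 members were called lower than in PR Sd and none higher, or 10.1% and 0% of those tested, against 9.53% lower and 3.36% higher of all loci. At the looser threshold 30 members (43.5%) were lower and 1 (1.45%) higher, against 44.3% and 8.29%. The median log2 fold change was -0.33 over the members and -0.35 over all loci. Without replicate 1, 4 members were called. After rescaling, 3 members were called lower and none higher, while the share of higher loci among all those called was 55.6%, against 26.1% before. The rescaled median was 0.06 over the members and -0.02 over all loci. At the looser threshold 11 of the 68 members tested after rescaling were higher in PR NSd and 10 lower. The share of all loci at that threshold was not computed after rescaling, so these counts have no background beside them. This comparison and that of ripe NSd with PR NSd share the PR NSd libraries.

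**Figure D2:**
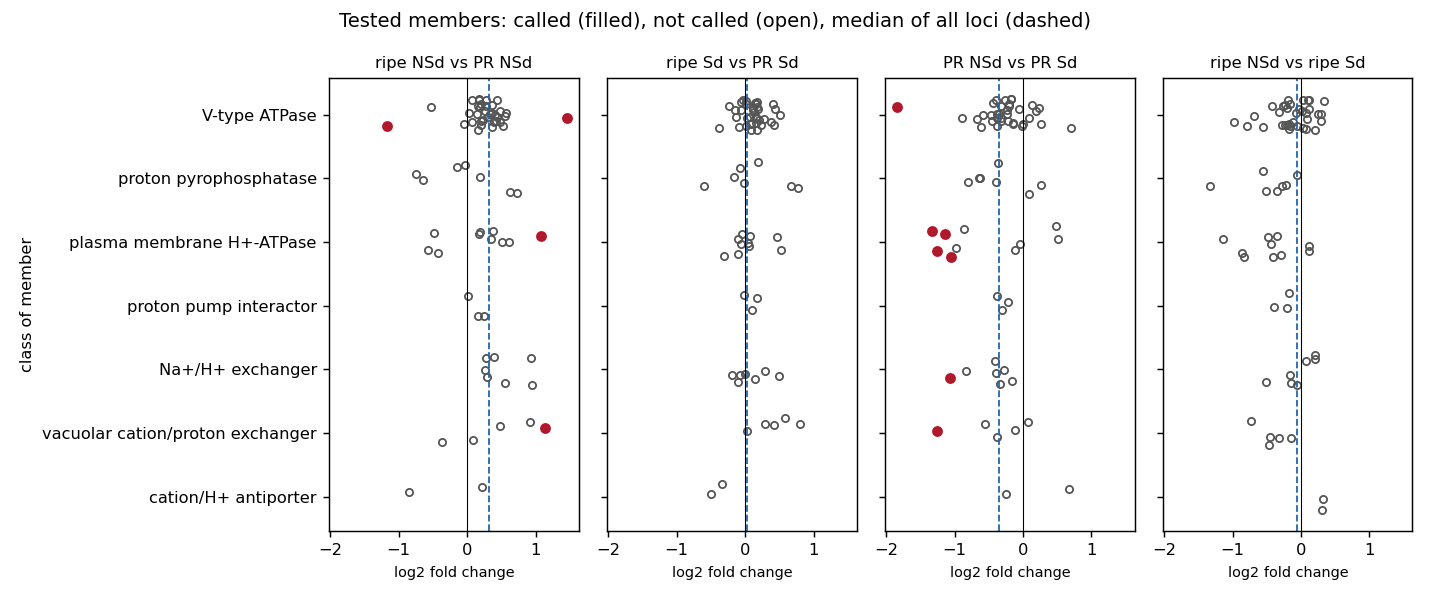
Log2 fold changes (x axis) of the 69 tested members by class (rows) in the 4 comparisons of groups. Filled points are called, the dashed line is the median of all loci (0.31, 0.03, -0.35 and -0.06 from left to right), and most V-type ATPase loci lie close to that line while 4 plasma membrane ATPases are called lower in PR NSd than in PR Sd.

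Among V-type loci, a minor B subunit gave the largest fold of the group. LOC105047670 had 4.09, 3.42 and 3.50 RPKM in ripe NSd, against 0.793, 0.570 and 0.720 RPKM in PR NSd, and 6.89, 6.92 and 7.48 RPKM in ripe Sd, against 5.43, 4.58 and 5.29 RPKM in PR Sd. The 4 groups did not overlap, with PR NSd lowest and ripe Sd highest. It rose with ripening in the NSd palm by a log2 fold change of 1.46 ± 0.12 (SE, adjusted p = 5.36e-06) and was lower in PR NSd than in PR Sd by -1.85 ± 0.12 (adjusted p = 7.84e-07). Both calls held after rescaling, at 1.28 and -1.62, and without each library in turn. The ripe palms differed by -0.79 ± 0.12 (adjusted p = 0.00239), short of the fold limit. The locus made up 0.572% to 0.903% of the B subunit RPKM in PR NSd and 3.01% to 4.71% in the other groups, a share that does not depend on the scaling of a library. The 2 major B loci carried most of the subunit in each of the 12 libraries.

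The proteolipid locus LOC105037747 moved the other way. It had 56.0, 46.4 and 74.8 RPKM in ripe NSd, against 119, 137 and 143 RPKM in PR NSd, and 133, 120 and 95.8 RPKM in ripe Sd, against 62.8, 59.5 and 141 RPKM in PR Sd. The stages did not overlap in the NSd palm, and replicate 9 of PR Sd lay above the ripe Sd libraries while the other 2 lay below them. It fell with ripening in the NSd palm by 1.18 ± 0.29 on the log2 scale (SE, adjusted p = 0.00597). The call was lost, with an adjusted p of 0.0116 to 0.0285, when any of replicates 1 to 5 was left out. Between the ripe palms the log2 fold change was -0.98 ± 0.29 (adjusted p = 0.0468). Between the PR palms it was 0.70 ± 0.29 (adjusted p = 0.0560), and 1.10 (adjusted p = 0.00123) without replicate 9. Its share of the subunit c RPKM was 4.61% to 7.09% in ripe NSd and 11.6% to 13.4% in PR NSd.

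Few V-type loci had an interval that reached past the fold limit. The interval of the log2 fold change lay between -1 and 1 for 33 of the 35 loci with ripening in NSd, 31 of 35 between PR NSd and PR Sd, and 32 of 35 between ripe NSd and ripe Sd, against 66.2%, 62.4% and 80.8% of all loci. Besides LOC105047670 and LOC105037747, the exceptions were subunit A LOC105037397 and subunit E LOC105044854 between the PR palms and subunit E LOC105052321 between the ripe palms. Between the ripe palms 4 V-type loci were lower in NSd at the looser threshold. Of these, LOC105047670 and LOC105037747 were described with their own values, and the others were a major B subunit, LOC105061427, singled out after its values were seen, with 63.1, 45.6 and 55.2 RPKM in ripe NSd, against 74.6, 73.7 and 92.0 RPKM in ripe Sd, and subunit E LOC105052321. Subunit c''2 LOC105041825 had one of the smallest p-values for ripening in the Sd palm, with 5.74, 6.01 and 6.57 RPKM in ripe Sd, against 3.99, 4.64 and 4.13 RPKM in PR Sd, and did not reach either threshold (adjusted p = 0.136).

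Subunit E, which with G forms the peripheral stalks that hold the V1 head in place, had a mixture of loci that differed between the palms. Of the RPKM summed over 4 E loci, LOC105044854 took 22.5% to 25.3% in ripe NSd and 20.1% to 24.7% in PR NSd, against 28.4% to 30.9% in ripe Sd and 33.9% to 36.2% in PR Sd. The leading locus LOC105039747 took 56.0% to 57.1% in ripe NSd and 52.7% to 55.2% in PR NSd, against 46.8% to 48.5% in ripe Sd and 42.3% to 42.9% in PR Sd. The libraries of the palms did not overlap for either locus at either stage. These shares were noticed after their values were seen and were not tested.

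In RPKM, LOC105044854 had 48.8, 48.4 and 52.7 RPKM in PR NSd, against 95.7, 89.2 and 95.3 RPKM in PR Sd, a log2 fold change of -0.89 ± 0.12 (SE, adjusted p = 9.34e-05) that was short of the fold limit and came to -0.49 (adjusted p = 0.00553) after rescaling. The third E locus, LOC105052321, had 26.2, 23.1 and 21.4 RPKM in ripe NSd, against 29.3, 36.2 and 38.4 RPKM in PR NSd, and 35.7, 39.2 and 40.4 RPKM in ripe Sd, against 24.2, 27.7 and 37.3 RPKM in PR Sd. Ripe NSd was lowest without overlap with PR NSd or ripe Sd, with a log2 fold change of -0.69 ± 0.16 between the ripe palms (adjusted p = 0.0168) and -0.53 ± 0.16 with ripening in NSd (adjusted p = 0.0163), the second of which was -0.89 (adjusted p = 0.000375) after rescaling.

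**Figure D3:**
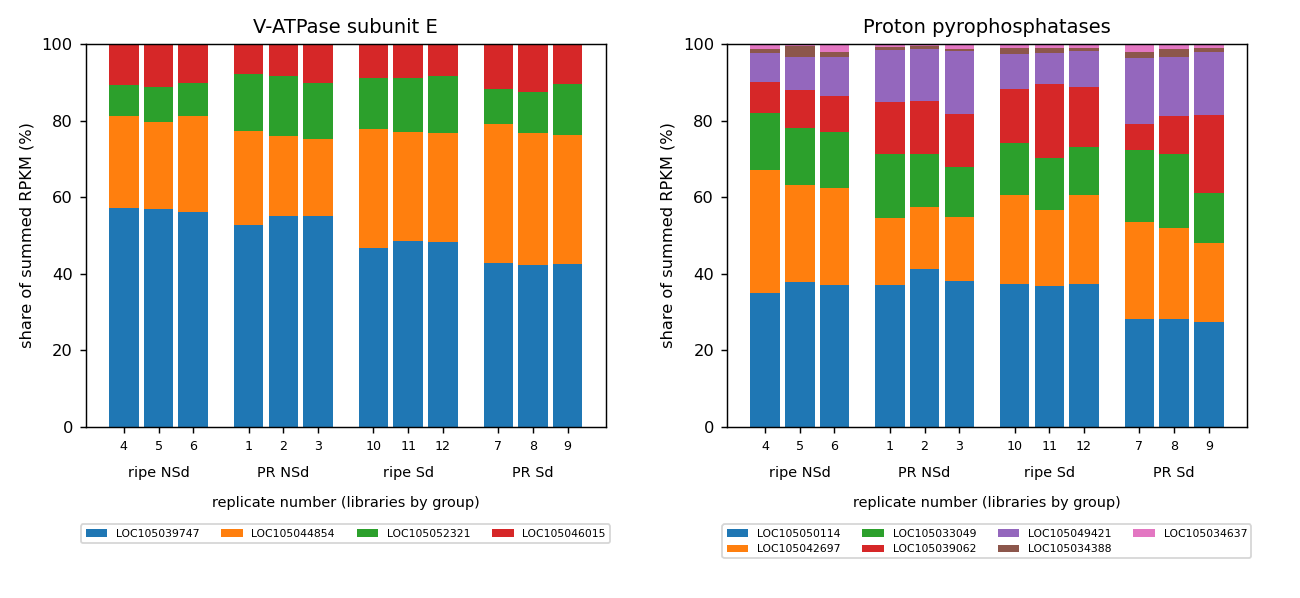
Shares (%) of the summed RPKM of V-type ATPase subunit E (left) and of the proton pyrophosphatases (right) by locus in each library, ordered as ripe NSd, PR NSd, ripe Sd and PR Sd, for the 4 loci of subunit E and the 7 tested pyrophosphatases. LOC105044854 of subunit E takes 20.1% to 25.3% in NSd libraries and 28.4% to 36.2% in Sd libraries, and pyrophosphatase LOC105050114 takes 27.4% to 28.3% in PR Sd libraries and 34.9% to 41.2% in the others.

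The proton pyrophosphatase, a single-chain pump driven by pyrophosphate, works beside the V-type ATPase at the vacuole. The 8 loci of the class summed to 167 ± 14.6 RPKM in ripe NSd, 176 ± 22.6 RPKM in PR NSd, 242 ± 22.0 RPKM in ripe Sd and 202 ± 22.8 RPKM in PR Sd (SD, n = 3 each). They include LOC105042697, at 22.4% of the class on average, whose description does not name the vacuole. The 3 ripe Sd libraries, at 217 to 258 RPKM, were above the 3 ripe NSd libraries, at 153 to 182 RPKM. In limma none of the 7 tested loci was called between any 2 groups, with an unadjusted p under 0.05 for 3 loci in ripening of each palm, 4 between the ripe palms and 3 between the PR palms. Between the ripe palms the log2 fold change was negative for all 7 and 2 passed the looser threshold, LOC105050114 at -0.55 ± 0.14 (SE, adjusted p = 0.0231) and LOC105039062 at -1.33 ± 0.35 (adjusted p = 0.0309).

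LOC105050114 made up 27.4% to 28.3% of the class in PR Sd and 34.9% to 41.2% in the other groups. LOC105039062, chosen after its values were seen, had 12.4, 16.2 and 16.9 RPKM in ripe NSd, against 20.7, 24.2 and 27.4 RPKM in PR NSd, and 30.6, 49.2 and 40.3 RPKM in ripe Sd, against 12.6, 19.4 and 46.0 RPKM in PR Sd. As for LOC105037747, replicate 9 was far above the other PR Sd libraries. Without it, LOC105039062 was called higher in ripe Sd than in PR Sd at a log2 fold change of 1.27 (adjusted p = 0.00813), against 0.77 ± 0.35 (adjusted p = 0.215) with it. The call between the ripe palms, at an unchanged -1.33, was also reached without that library (adjusted p = 0.00233) and with only the compared groups in the fit (adjusted p = 0.00444).

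The pyrophosphate-energized membrane proton pump 3, LOC105042697, had 49.1, 42.4 and 46.1 RPKM in ripe NSd, against 26.9, 28.1 and 33.4 RPKM in PR NSd, and 50.6, 49.7 and 60.1 RPKM in ripe Sd, against 46.2, 46.0 and 47.2 RPKM in PR Sd. PR NSd lay below the other groups without overlap, at -0.65 ± 0.11 against PR Sd (SE, adjusted p = 0.000720) and with a ripening fold of 0.62 ± 0.11 in NSd (adjusted p = 0.00110), both short of the fold limit. After rescaling they were -0.25 (adjusted p = 0.0540) and 0.27 (adjusted p = 0.0439). The third locus by level, LOC105033049, averaged 29.0 RPKM and had -0.40 ± 0.11 between the PR palms (adjusted p = 0.0107), which after rescaling was -0.0081 (adjusted p = 0.968). LOC105049421 and LOC105034388, chosen after their values were seen, had ripening folds of -0.75 and 0.73 in NSd, and the first of them was called lower after rescaling, at -1.10.

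Plasma membrane H+-ATPases held 7.13% of the summed RPKM of the group and 4 of the 7 calls between the PR palms. Their 11 loci summed to 214 ± 7.49 RPKM in ripe NSd, 165 ± 19.9 RPKM in PR NSd, 300 ± 43.5 RPKM in ripe Sd and 268 ± 21.7 RPKM in PR Sd (SD, n = 3 each). The 6 NSd libraries, at 143 to 221 RPKM, were all below the 6 Sd libraries, at 247 to 344 RPKM. Of 10 tested loci, 4 were called lower in PR NSd than in PR Sd and 1 was called higher in ripe than in PR NSd, where 9.53% and 7.77% of all loci were called in these directions. After rescaling 1 of the 4, LOC105039663, was called. The median log2 fold change of the 10 between the PR palms was -0.92, against -0.35 over all loci.

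The most abundant, LOC105050809, was among those not called. It had 79.6, 71.2 and 64.9 RPKM in ripe NSd, against 56.2, 68.2 and 65.5 RPKM in PR NSd, and 80.9, 97.9 and 109 RPKM in ripe Sd, against 71.9, 75.6 and 58.7 RPKM in PR Sd. Its log2 fold change between the PR palms was -0.11 ± 0.14 (SE, adjusted p = 0.519), and 0.29 (adjusted p = 0.0499) after rescaling. With RPKM as deposited, ripe Sd was above the other groups without overlap.

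Plasma membrane ATPase 3 LOC105054079 had 47.2, 53.1 and 55.8 RPKM in ripe NSd, against 24.03, 23.5 and 24.8 RPKM in PR NSd, and 62.2, 60.6 and 69.9 RPKM in ripe Sd, against 58.4, 64.5 and 64.6 RPKM in PR Sd. PR NSd was far below the other groups and tight. It was lower in PR NSd than in PR Sd by -1.34 ± 0.10 (SE, adjusted p = 2.29e-06) and rose with ripening in NSd by 1.08 ± 0.10 (adjusted p = 1.50e-05). After rescaling the values were -0.94 and 0.73, short of the fold limit with adjusted p of 0.000114 and 0.000706. Its share of the class was 13.1% to 16.9% in PR NSd and 20.3% to 27.1% elsewhere. In Sd fruit its ripening fold was 0.04 ± 0.10 (adjusted p = 0.870).

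The second locus named plasma membrane ATPase 3, LOC105046422, had 37.2, 48.0 and 48.8 RPKM in ripe NSd, against 25.9, 30.6 and 30.0 RPKM in PR NSd, and 56.9, 53.3 and 60.2 RPKM in ripe Sd, against 58.7, 64.2 and 60.0 RPKM in PR Sd. The NSd libraries were below the Sd libraries at both stages. It was lower in PR NSd than in PR Sd by -1.06 ± 0.12 (SE, adjusted p = 4.14e-05), and by -0.98 without replicate 1 and -0.66 after rescaling, which ended the call. LOC105039277 had 12.8, 16.005 and 19.9 RPKM in PR NSd, against 39.7, 42.9 and 28.6 RPKM in PR Sd. These groups did not overlap, at -1.15 ± 0.24 (adjusted p = 0.00240), and the call ended after rescaling (-0.76) and without replicate 1, 7 or 8 (adjusted p = 0.0109, 0.0106 and 0.0132).

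A low locus kept its call under every alternative run. LOC105039663 had 0.515, 0.846 and 0.428 RPKM in ripe NSd, against 0.257, 0.257 and 0.159 RPKM in PR NSd, and 1.66, 2.08 and 1.78 RPKM in ripe Sd, against 1.67, 2.21 and 1.89 RPKM in PR Sd. NSd stayed under 1 RPKM and Sd above it in all libraries. The reads behind the PR values were 21, 20 and 11 in PR NSd, against 206, 170 and 150 in PR Sd. The log2 fold change was -1.25 ± 0.14 between the PR palms (SE, adjusted p = 3.68e-05) and -1.12 after rescaling. Between the ripe palms it was -0.84 ± 0.14 (adjusted p = 0.00429), and -1.52 (adjusted p = 0.00799) with a pseudocount of 0.1 RPKM, which made it a call.

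Of the remaining plasma membrane ATPases, LOC105039662, chosen after its values were seen, spread widely, with 28.6, 14.4 and 10.4 RPKM in ripe NSd, against 28.4, 35.9 and 50.4 RPKM in ripe Sd (adjusted p = 0.0578). A pair of loci named plasma membrane ATPase 4 were tested only because of replicate 1. LOC105060232 had 2.77 RPKM there and at most 0.289 RPKM in the 11 others, and LOC105050697 had 2.06 RPKM there and at most 0.307 RPKM in the others. The third, LOC105052943, reached 0.896 RPKM at most and was not tested.

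**Figure D4:**
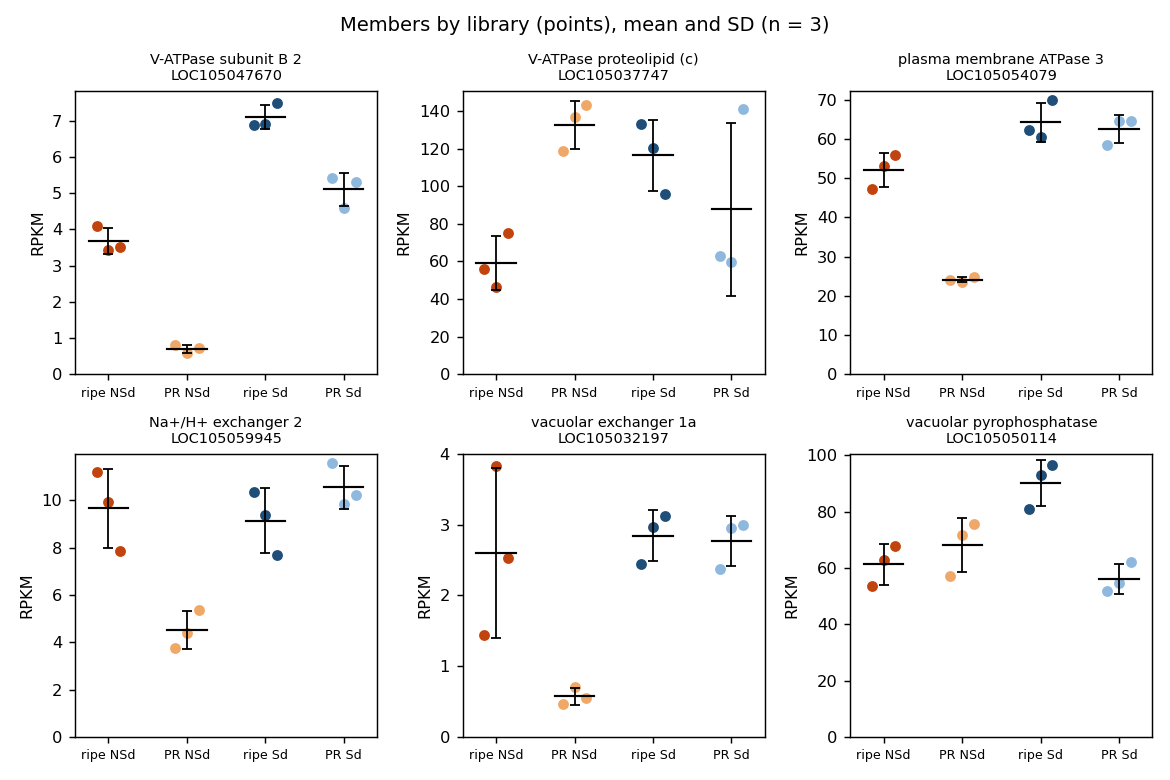
RPKM as deposited (y axis) of 6 members in each library (points) with the mean and SD of 3 libraries, in ripe NSd, PR NSd, ripe Sd and PR Sd from left to right. PR NSd is lowest for V-ATPase B 2, plasma membrane ATPase 3, sodium/hydrogen exchanger 2 and vacuolar exchanger 1a, highest on average for the proteolipid LOC105037747, and the pyrophosphatase LOC105050114 is highest in ripe Sd.

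Proton pump interactors bind the regulatory C terminus of the plasma membrane pump, as first described in Arabidopsis. All 3 were tested and none was called in limma between any groups, with an unadjusted p under 0.05 for 0 with ripening in Sd, 1 with ripening in NSd, 1 between the ripe palms and 2 between the PR palms. LOC105048078, named BIP131, had 34.1, 35.8 and 40.5 RPKM in PR NSd, against 47.0, 45.4 and 45.0 RPKM in PR Sd, without overlap and at -0.31 ± 0.11 (SE, adjusted p = 0.0354), which after rescaling was 0.08 (adjusted p = 0.499). LOC105040982 averaged 29.6 RPKM and had -0.39 ± 0.14 between the ripe palms (adjusted p = 0.0897). Interactor 1 LOC105040556 averaged 14.9 RPKM. The 14-3-3 proteins, which activate the pump by binding the same terminus, were not called either, with 0 of 16 tested loci in each of the comparisons. At an adjusted p under 0.05, 5 of the 16 were higher in ripe than in PR NSd, where 39.2% of all loci were, and 4 were lower in PR NSd than in PR Sd, where 44.3% of all loci were.

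Sodium/hydrogen exchangers trade lumenal protons for sodium or potassium. In Arabidopsis, numbers 1 to 4 act at the vacuole, 6 in the Golgi network and endosomes, and 7 is the plasma membrane exporter SOS1. The 8 loci summed to 102 ± 6.47 RPKM in ripe NSd, 71.8 ± 9.46 RPKM in PR NSd, 107 ± 4.598 RPKM in ripe Sd and 101 ± 7.19 RPKM in PR Sd (SD, n = 3 each). With RPKM as deposited, the highest PR NSd library, at 81.3 RPKM, was below the lowest library of any other group, at 92.9 RPKM. The sums were not rescaled, and as for the V-type sum, this difference cannot be told apart from the lower scale of the PR NSd libraries. Most of the RPKM came from exchanger 6 LOC105039506, at 42.7 RPKM on average, and exchanger 2 LOC105032103, at 27.3 RPKM, neither of which was called. Between the PR palms their folds were -0.34 and -0.42 in that order. After rescaling they were 0.06 (adjusted p = 0.701) and -0.03 (adjusted p = 0.852).

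The calls fell on a pair of lower loci of exchanger 2. LOC105059945 had 11.2, 9.94 and 7.87 RPKM in ripe NSd, against 3.78, 4.38 and 5.37 RPKM in PR NSd, and 10.4, 9.39 and 7.67 RPKM in ripe Sd, against 11.6, 9.84 and 10.2 RPKM in PR Sd. PR NSd was below all other libraries. It was lower in PR NSd than in PR Sd by -1.07 ± 0.16 (SE, adjusted p = 0.000224), by -0.98 without replicate 1 and by -0.73 after rescaling, both of which ended the call. LOC105045226 had 10.4, 8.40 and 7.88 RPKM in ripe NSd, against 3.51, 4.65 and 4.31 RPKM in PR NSd, and 7.47, 8.47 and 6.70 RPKM in ripe Sd, against 8.87, 8.43 and 7.33 RPKM in PR Sd. PR NSd was again lowest, with -0.84 ± 0.14 between the PR palms (adjusted p = 0.000563) and -0.50 (adjusted p = 0.00636) after rescaling. The ripening folds in NSd, 0.95 ± 0.16 and 0.94 ± 0.14, were just short of the limit for LOC105059945 and LOC105045226 in that order. Without replicate 6 both were called, at 1.08 and 1.01, as was LOC105059945 without replicate 3 (1.06) and LOC105045226 without replicate 2 (1.01). Exchanger 7 LOC105056363 had 1.29, 2.08 and 1.77 RPKM in ripe NSd, against 2.37, 2.91 and 3.34 RPKM in ripe Sd, at -0.52 ± 0.15 (adjusted p = 0.0430). Exchanger 4 LOC105038946 did not exceed 0.0990 RPKM.

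Vacuolar cation/proton exchangers, 5 of 8 tested, were led by exchanger 3 LOC105053019 at 24.1 RPKM, exchanger 1a LOC105049425 at 11.9 RPKM and exchanger 2 LOC105056649 at 8.04 RPKM. Their sum was 46.6 ± 4.75 RPKM in ripe NSd, 37.9 ± 1.72 RPKM in PR NSd, 63.3 ± 5.02 RPKM in ripe Sd and 45.3 ± 3.59 RPKM in PR Sd (SD, n = 3 each), with the ripe Sd libraries, from 60.2 RPKM up, above all others. All 5 had a positive ripening fold in Sd and a negative fold between the ripe palms. At the looser threshold LOC105041957 was higher in ripe Sd than in PR Sd, and it and LOC105056649 were lower in ripe NSd than in ripe Sd. LOC105056649 had 6.83, 5.58 and 5.49 RPKM in ripe NSd, against 10.5, 9.54 and 11.5 RPKM in ripe Sd, without overlap and at -0.73 ± 0.16 (SE, adjusted p = 0.0128).

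The called locus of the class was exchanger 1a LOC105032197. It had 1.44, 3.84 and 2.53 RPKM in ripe NSd, against 0.467, 0.700 and 0.553 RPKM in PR NSd, and 2.44, 2.97 and 3.13 RPKM in ripe Sd, against 2.37, 2.95 and 3.00 RPKM in PR Sd. PR NSd was below all other libraries, and ripe NSd spread over the range of both Sd groups. It rose with ripening in NSd by 1.14 ± 0.21 (SE, adjusted p = 0.00117), a call lost without replicate 5 (0.90), with only the compared groups in the fit (adjusted p = 0.0115) and after rescaling (0.99). It was lower in PR NSd than in PR Sd by -1.26 ± 0.21 (adjusted p = 0.000505), which held under every alternative run. LOC105049425 was called higher with ripening in NSd without replicate 1, at 1.29, against 0.92 ± 0.30 (adjusted p = 0.0250) with it and 0.60 (adjusted p = 0.204) after rescaling.

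Cation/H(+) antiporters, which in Arabidopsis serve potassium and pH balance of endomembranes and are many in pollen, were nearly silent. Of 17 loci 15 were not tested, with 0.408 RPKM as the highest value of any of them, reached by antiporter 19 LOC105035748. Listed at 0 in all libraries were LOC105035432, LOC105036000, LOC105037277, LOC105046206 and LOC105053315, where a count of 0 allows up to 3 of the 277584786 aligned reads for each locus. The leading locus was antiporter 15-like LOC105046205, at 1.18 RPKM.

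Antiporter 20 LOC105033828, which serves potassium balance in guard cells of Arabidopsis, was highest in PR NSd. It had 0.297, 0.811 and 1.06 RPKM in ripe NSd, against 1.84, 1.87 and 2.48 RPKM in PR NSd, and 0.256, 0.412 and 0.396 RPKM in ripe Sd, against 1.11, 0.762 and 0.899 RPKM in PR Sd. PR was above ripe without overlap in both palms, and PR NSd was highest. The ripening fold in NSd was -0.85 ± 0.18 (SE, adjusted p = 0.00246), and -1.07 after rescaling and -1.52 with a pseudocount of 0.1 RPKM, either of which made it a call. In Sd it was -0.50 ± 0.18 (adjusted p = 0.113). With RPKM as deposited, this was the only member higher in PR NSd than in PR Sd at the looser threshold, by 0.67 ± 0.18 (adjusted p = 0.00804). After rescaling 11 members were higher at that threshold and 10 lower, with no share of all loci computed to set beside them.

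Between the ripe palms, the stage at which the Sd palm sheds, no member was called in either direction, while 0.815% of all loci were called higher and 1.63% lower in ripe NSd. An unadjusted p under 0.05 was found for 21 members (30.4%), against 28.2% of all loci. At the looser threshold 10 members (14.5%) were lower and none was higher, against 7.46% and 4.09% of all loci. The 10 were 4 V-type loci, 2 pyrophosphatases, 2 vacuolar cation/proton exchangers, plasma membrane ATPase LOC105039663 and sodium/hydrogen exchanger 7. After rescaling 10 members were lower and 1 higher, and the 10 were not all the same. LOC105037747 (adjusted p = 0.0679) and LOC105056363 (0.0508) dropped out, and LOC105039662 (0.0394) and LOC105040982 (0.0463) came in. The share of all loci at that threshold was not computed after rescaling. The median log2 fold change was -0.18 over the members and -0.06 over all loci.

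Whether ripening differed between the palms was tested as the difference of the ripening folds, NSd minus Sd. It was called positive for 4 members and negative for 1, or 5.80% and 1.45% of those tested, against 9.19% and 4.07% of all loci, whose median was 0.30. The positive ones were sodium/hydrogen exchanger 2 LOC105059945 (1.14 ± 0.22, adjusted p = 0.00267), V-type B 2 LOC105047670 (1.05 ± 0.17, adjusted p = 0.000818), exchanger 2 LOC105045226 (1.05 ± 0.20, adjusted p = 0.00232) and plasma membrane ATPase 3 LOC105054079 (1.04 ± 0.14, adjusted p = 0.000364). After rescaling all 4 were below the limit, at 0.85, 0.89, 0.76 and 0.71. The call was also lost for LOC105047670 without replicate 2 or 4, for LOC105045226 without replicate 1, 4, 7 or 12 and for LOC105054079 without replicate 6 or 11. The negative one was the proteolipid LOC105037747, at -1.69 ± 0.40 (adjusted p = 0.00798), and -2.02 after rescaling, with the call lost when any library but replicates 6 and 9 was left out. LOC105039062 (-1.91) and LOC105052321 (-1.09) were called without replicate 9, LOC105052321 without replicate 1 (-1.03) LOC105046015 of subunit E without replicate 3 (1.10) and LOC105032197 without replicate 4 (1.37). Rescaling added 3 negative calls, of pyrophosphatase LOC105050114 (-1.16, against -0.82 before), V-type E LOC105052321 (-1.25, against -0.92) and vacuolar exchanger 2 LOC105056649 (-1.10, against -0.80).

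**Figure D5:**
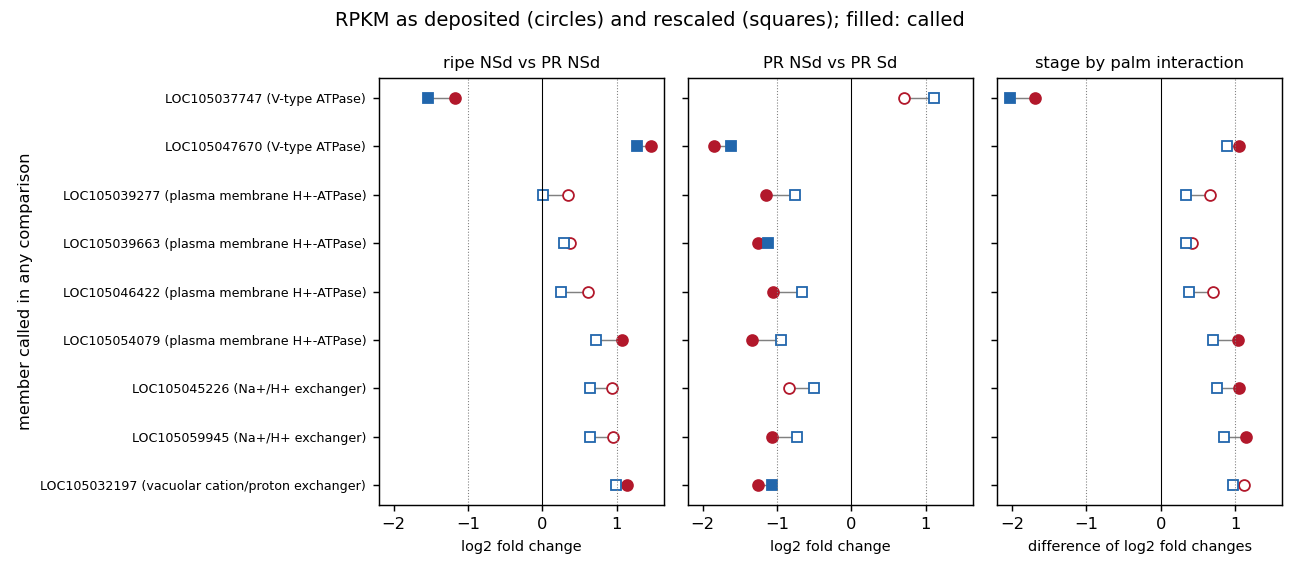
Log2 fold changes (x axis, dotted lines at -1 and 1) of the 9 members called in any comparison (rows), with RPKM as deposited (circles) and after rescaling of the libraries (squares), for ripening in NSd, the PR palms and the difference between the palms' ripening folds. Filled symbols are called. Squares of the 9 members lie nearer to 0 than circles except for LOC105037747, and the NSd ripening and PR palm calls of LOC105047670 hold on both scales.

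Loci of neighboring pathways gave the frame for these values. Soluble inorganic pyrophosphatases split the pyrophosphate that the vacuolar pump would use, and all 8 were tested. Pyrophosphatase 4 LOC105044465 averaged 229 ± 45.9 RPKM in ripe NSd and 668 ± 241 RPKM in PR NSd, and 480 ± 74.2 RPKM in ripe Sd and 245 ± 118 RPKM in PR Sd (SD, n = 3 each). It fell with ripening in NSd by 1.48 ± 0.33 on the log2 scale (SE, adjusted p = 0.00399), was higher in PR NSd than in PR Sd by 1.47 ± 0.33 (adjusted p = 0.00345), and its ripening differed between the palms by -2.54 ± 0.47 (adjusted p = 0.00200). The chloroplastic pyrophosphatase 6 LOC105060092 was lower in PR NSd than in PR Sd by -1.21 ± 0.14 (adjusted p = 5.55e-05).

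Calcium P-type ATPases export calcium from the cytosol with ATP and so share the task of the vacuolar exchangers. Of 14 tested, 1 was called lower in ripe NSd than in ripe Sd, where 1.63% of all loci were. It was the plasma membrane type 10 LOC105057933, with 27.2 ± 8.73 RPKM in ripe NSd and 77.7 ± 6.16 RPKM in ripe Sd (SD, n = 3 each). The log2 fold change was -1.53 ± 0.25 (SE, adjusted p = 0.00362), with -1.03 ± 0.25 for ripening in NSd (adjusted p = 0.00587). The ripening difference between the palms was called negative for 3 of the 14 and positive for none, against 4.07% negative and 9.19% positive of all loci. Among 8 other cation exchangers, cation/calcium exchanger 1 LOC105053263 averaged 11.7 ± 1.32 RPKM in ripe NSd and 1.84 ± 0.657 RPKM in PR NSd, and 10.3 ± 1.57 RPKM in ripe Sd and 10.6 ± 2.58 RPKM in PR Sd, with a ripening difference of 2.201 ± 0.28 (adjusted p = 0.000234).

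In the lists that follow, the shares of all loci called were 7.77% higher and 3.07% lower in ripe than in PR NSd, and 9.53% lower in PR NSd than in PR Sd. Of 19 other P-type ATPases tested, 2 copper pumps were called higher in ripe than in PR NSd and 3 loci lower in PR NSd than in PR Sd. Among 8 potassium efflux antiporters 1 was called in each of these directions, LOC105048013. Of 20 ATP synthase loci, 2 were called higher and 1 lower in ripe than in PR NSd. Among 4 tested vacuolar aquaporins, TIP4-3 LOC105042269 averaged 12.9 ± 3.12 RPKM in ripe NSd and 2.64 ± 0.458 RPKM in PR NSd, and 13.8 ± 2.18 RPKM in ripe Sd and 15.0 ± 1.00 RPKM in PR Sd. Its ripening fold in NSd was 1.92 ± 0.17 (SE, adjusted p = 9.95e-06). Other aquaporins of the list went the opposite way. TIP1-2 LOC105044478 was called lower in ripe than in PR NSd, at -1.29 ± 0.28 (adjusted p = 0.00282). TIP2-2 LOC105040867 was called higher in PR NSd than in PR Sd, at 1.28 ± 0.30 (adjusted p = 0.00421). No description matched the list for V-ATPase assembly factors.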

How the data were processed

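Per the labels and the study's methods, single reads of 100 cycles (Illumina NovaSeq) were trimmed by the authors with bcl2fastq 2.20.0.422, checked with FastQC, mapped with BWA-MEM to E. guineensis transcripts and counted with SAMtools. The deposited values are RPKM, computed by the authors per locus, 1 file per library. DESeq, DESeq2 and HOMER are named among the authors' tools in the labels, and no counts were used here. The palm codes come from the labels and their phenotypes from the study. In each file 1 row without a locus was left out. Aligned reads per library were recovered from the steps of low RPKM values. Intervals cover 95%.

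Group means of log2(RPKM + 1) were estimated in limma 3.58.1 under R 4.3.3 (mean-variance trend, 1 mean per group, 12 libraries, two-sided tests, Benjamini-Hochberg adjustment over 20495 loci). The fit was tested on simulated data. Tables were made with Python 3.11.15 and pandas 2.3.3. Members and lists were chosen with earlier results of these data known. Named loci are the called members, the 3 highest of each class, those with the smallest p per class and comparison, and V-type subunits. Alternatives were no filter, a pseudocount of 0.1, the compared groups alone, a looser threshold, rescaled RPKM, no trend and leaving out each library. A fit without replicates 1 to 3 was added after seeing the data.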

Additional observations from a re-analysis of the deposited data

Results flagged for a closer look

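For 5 loci the change with ripening differed between the palms by the test of the difference itself, NSd minus Sd, in limma with Benjamini-Hochberg adjustment. Proteolipid LOC105037747 had -1.69, with ripening folds of -1.18 in NSd and 0.51 in Sd. Sodium/hydrogen exchanger 2 LOC105059945 had 1.14, with 0.95 in NSd and -0.19 in Sd, and exchanger 2 LOC105045226 had 1.05, with 0.94 in NSd and -0.11 in Sd. V-type B 2 LOC105047670 had 1.05, with 1.46 in NSd and 0.41 in Sd. Plasma membrane ATPase 3 LOC105054079 had 1.04, with 1.08 in NSd and 0.04 in Sd. The median of all loci was 0.30 in this comparison. Median RPKM was lower in the 3 PR NSd libraries than in the 9 others, and its part in these values was not tested.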

How the results depend on the processing

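Counts of called members moved by over 1.5 times under these alternatives. With an adjusted p under 0.05 and no fold limit they were 2 for ripening in Sd (0 at the threshold of the report), 28 for ripening in NSd (4), 10 between the ripe palms (0), 31 between the PR palms (7) and 16 for the difference of ripening (5). With a pseudocount of 0.1 they were 8 for ripening in NSd and 1 between the ripe palms, where the compared groups alone also gave 1. Rescaling gave 3 between the PR palms. Leaving out each library gave 0 to 1 for ripening in Sd, 2 to 6 for ripening in NSd, 0 to 1 between the ripe palms, 4 to 8 between the PR palms and 3 to 7 for the difference. Without replicate 9 pyrophosphatase LOC105039062 became a call in Sd ripening and between the ripe palms. Without replicate 5 the NSd ripening calls of LOC105032197 and LOC105037747 were lost, and without replicate 1 the PR calls of LOC105039277, LOC105046422 and LOC105059945. For the difference of ripening, the count was 3 without replicate 2, 4, 7, 11 or 12 and 7 without replicate 9. The fit without replicates 1 to 3, chosen after seeing the data, gave 0 for ripening in Sd and 0 between the ripe palms. The call of LOC105037747 for that difference was lost in 11 alternatives (adjusted p of 0.0107 to 0.0226), that of LOC105045226 in 5 and those of LOC105047670 and LOC105054079 in 3 each. The direction between the PR palms reversed after rescaling for LOC105048078 (0.0847), LOC105050809 (0.287) and LOC105054189 (0.0579). That of LOC105054079 with ripening in Sd, near 0, reversed without replicate 7 (-0.0091) or 12 (-0.0234), in a range of -0.0234 to 0.0787 without each library.

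No paired analysis was possible because the libraries carry the numbers 1 to 12 and no number is shared between groups. Alternatives that need counts were not run. With 3 samplings of 1 bunch per group, small changes of loci near 1 RPKM, which the log2(RPKM + 1) scale understates, cannot be seen.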
